A study of Homo sapiens with 18 samples.

Results

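Mediator is the large coactivator that carries signals from DNA-bound transcription factors to RNA polymerase II at promoters. Its core is built of a head, a middle and a tail module held together by the scaffold subunit MED14. Head and middle contact the polymerase, the tail is the main docking surface for activators, and a separable kinase module of CDK8 or CDK19, cyclin C, MED12 and MED13 binds the core reversibly and blocks its contact with the polymerase. Inhibitors of CDK8 and CDK19 slow the growth of some acute myeloid leukaemia lines.

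The genes described here are the rows of the deposited expression table with a symbol of the form MED plus a number, with or without a final L, together with CDK8, CDK19 and CCNC. They are 33 of 23713 rows: 7 of the head, 9 of the middle, MED14, 9 of the tail and 7 of the kinase module. MED27, MED28, MED29 and MED30 were counted in the tail, where structures of the human complex place them, although they are often listed in the head. MED12L lay at 0.0974 to 0.108 FPKM in all groups and was left out of the comparisons. The most frequent value of each column was close to this, at 0.0914 to 0.105 FPKM, and 6066 rows held it in DMSO at 4 h. The other 32 genes reached 1 FPKM in at least 1 group and entered the comparisons.

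The cells were of MOLM-13, an established line from a human acute monocytic leukaemia. The groups were dTRIM24 for 24 h, IACS-9571 for 24 h, DMSO for 24 h, dTRIM24 for 4 h, IACS-9571 for 4 h and DMSO for 4 h, with 3 samples each and 18 in all. IACS-9571 is a ligand of the TRIM24 and BRPF1 bromodomains, dTRIM24 couples a ligand of the TRIM24 bromodomain to a VHL ligand so that the ubiquitin ligase can reach TRIM24, and DMSO is the solvent control. No dose is given in these sources, so the compounds are set side by side at matched times only. MOLM-13 is a single line, and the labels do not tell whether a group's samples were grown as separate cultures.

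For each gene and group the table holds 1 mean in FPKM, a unit defined as fragment counts per transcript length and library size. Scaling by library size alone cannot be assumed for these columns. Their totals ran from 771830 to 1058350 FPKM, while the medians of ERCC spike-in RNAs stayed between -0.06 and 0.02 in the 9 comparisons. The columns thus look as if the spike-ins had set their level. Values per sample were not analysed here. No difference below was therefore tested, no value has a replicate error, and the read depth is unknown. Differences are of log2(FPKM + 1), first group minus second, and a gene is past 2-fold at a difference of 1 or more; this scale understates changes of low genes. As a scale, 25 ERCC spike-in RNAs with at least 5 FPKM had log2 differences with an SD of 0.11 to 0.22 over the 9 comparisons, a spread among RNAs of group means and no replicate error. All 10 myeloid leukaemia markers reached 1 FPKM (CSF1R only just, at 1.22 FPKM or less) and none of 13 markers of lymphoid, erythroid, epithelial and fibroblast cells did, the highest of them at 0.594 FPKM. TRIM24 mRNA had 17.2 FPKM with dTRIM24, 14.02 FPKM with IACS-9571 and 13.97 FPKM in DMSO at 24 h, and 17.3, 17.6 and 14.6 FPKM in the same order at 4 h.

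Mediator genes were of middling abundance in MOLM-13 cells. In DMSO at 4 h the median of the 32 genes was 15.8 FPKM, against 12.2 FPKM for the 11054 genes compared. The kinase module held both the highest gene and low ones. CCNC, which encodes cyclin C, the partner of CDK8 and CDK19, was the highest Mediator gene in all 6 groups, at 63.8 to 89.1 FPKM. MED28 of the tail (46.2 to 58.1 FPKM) and MED4 of the middle (45.4 to 56.8 FPKM) came next, changing places only with dTRIM24 at 24 h. MED30 and MED10 held the fourth and the fifth place in each group. At the low end stood MED31 and MED26, the subunit through which Mediator contacts elongation factors, both below 8 FPKM in each group, and the head subunit MED18.

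The order of the levels was steadiest among the highest genes. In all 6 groups MED20 held rank 8 and CDK8 rank 9 of 32. Most genes below these ranks changed places more. Some of the lowest moved little, MED31 over 1 place and MED22, MED26, MED12 and CDK19 over 2 each. MED18 and MED11 moved most, each over 9 places, followed by MED16 over 8 and MED15 and MED25 over 7. MED7 and MED21 moved over 6 places and MED13 over 5. MED18 stood at rank 22 with dTRIM24 at 24 h and at rank 27 with IACS-9571 at 24 h, against rank 30 in DMSO at 24 h. MED11 stood at rank 11 with dTRIM24 at 24 h, against rank 18 in DMSO at 24 h.

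The remaining subunits show how narrow the range over groups was. The median ratio of the highest to the lowest group was 1.35 for Mediator genes and also for all genes, from 1.11 for MED7 to 2.30 for MED18. MED14, the scaffold that joins head, middle and tail, had 11.8 FPKM with dTRIM24, 10.03 FPKM with IACS-9571 and 10.6 FPKM in DMSO at 24 h, and 13.03, 12.7 and 12.4 FPKM in the same order at 4 h. MED17, the central subunit of the head, had 14.98 FPKM with dTRIM24, 11.96 FPKM with IACS-9571 and 13.1 FPKM in DMSO at 24 h, and 14.7, 14.4 and 14.2 FPKM at 4 h. Both were lowest with IACS-9571 at 24 h. MED6, another head subunit, had 16.99 FPKM with dTRIM24, 15.1 FPKM with IACS-9571 and 14.9 FPKM in DMSO at 24 h, and 17.5, 16.8 and 17.3 FPKM at 4 h.

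In the tail, MED23, which the growth-signal factor ELK1 binds, had 15.2 FPKM with dTRIM24, 12.7 FPKM with IACS-9571 and 13.4 FPKM in DMSO at 24 h, and 16.5, 16.4 and 16.2 FPKM at 4 h. MED27 had 18.9 FPKM with dTRIM24, 14.05 FPKM with IACS-9571 and 14.9 FPKM in DMSO at 24 h, and 18.8, 17.8 and 19.1 FPKM at 4 h. MED29 had 17.4 FPKM with dTRIM24, 13.5 FPKM with IACS-9571 and 12.7 FPKM in DMSO at 24 h, and 16.8, 17.4 and 18.4 FPKM at 4 h. At 24 h these tail genes were highest with dTRIM24, and at 4 h the 3 groups were close. With dTRIM24 at 24 h, 31 of 32 Mediator genes and 96.8% of all genes stood above DMSO. All 32 Mediator genes and 98.4% of all genes stood above IACS-9571 there. Of the middle, MED19 had 9.01 FPKM with dTRIM24, 6.60 FPKM with IACS-9571 and 6.99 FPKM in DMSO at 24 h, and 9.01, 8.27 and 8.32 FPKM at 4 h. MED21 had 13.4 FPKM with dTRIM24, 11.98 FPKM with IACS-9571 and 13.3 FPKM in DMSO at 24 h, and 15.6, 14.4 and 13.9 FPKM at 4 h. MED21 was at nearly the same level with dTRIM24 and in DMSO at 24 h.

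**Figure D1:**
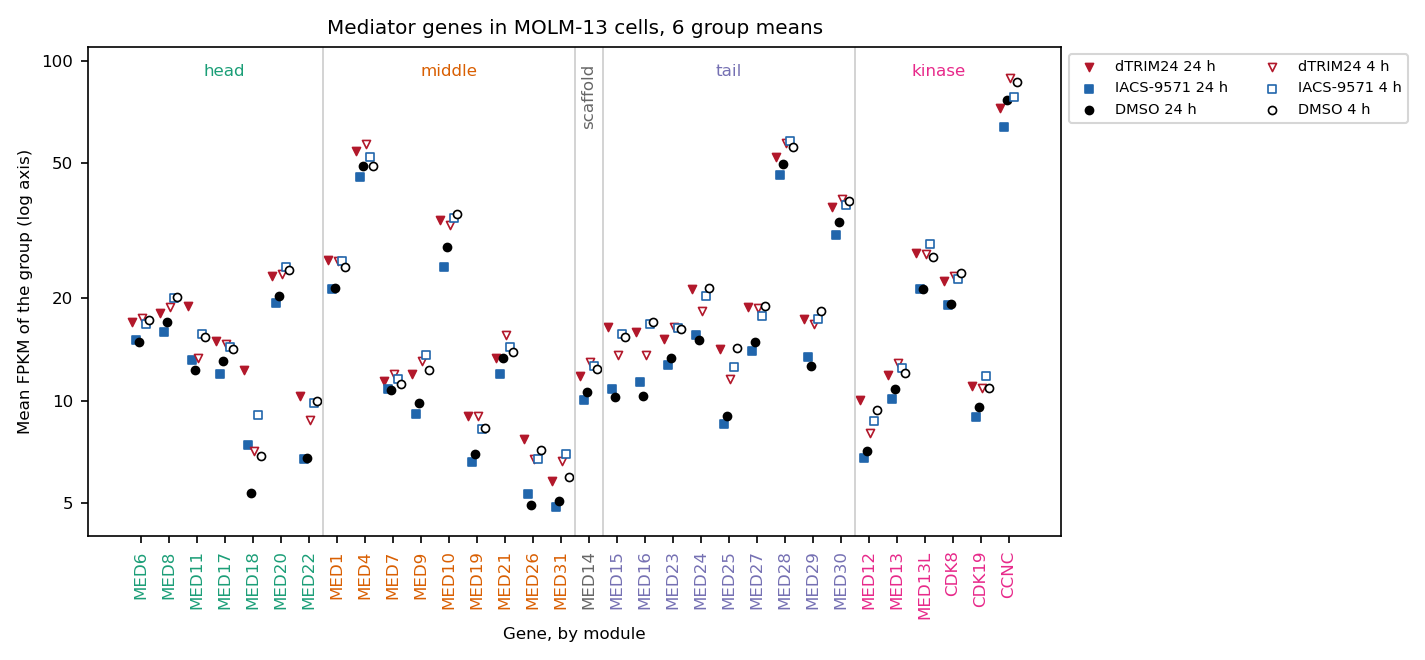
Mean FPKM (log axis) of 32 Mediator genes, by module, in 6 groups; filled symbols are 24 h, open symbols 4 h, and each symbol is 1 group mean without an error. CCNC is highest in each group, and MED18 at 24 h stands at 12.3 FPKM with dTRIM24, 7.41 FPKM with IACS-9571 and 5.35 FPKM in DMSO.

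The paralog pairs of the kinase module stood at like ratios in all groups. CDK8 exceeded CDK19, the other kinase of the module, by a ratio of 2.04 with dTRIM24, 2.14 with IACS-9571 and 2.005 in DMSO at 24 h. At 4 h the ratio was 2.13 with dTRIM24, 1.92 with IACS-9571 and 2.18 in DMSO. MED13L exceeded MED13, which ties the kinase module to the core, by a ratio between 1.98 (DMSO, 24 h) and 2.31 (IACS-9571, 4 h). MED12, the subunit that switches on the kinase through cyclin C, had 6.76 to 10.04 FPKM in the 6 groups, while its paralog MED12L was near the lowest values of the table.

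MED18 was the 1 Mediator gene past 2-fold in any comparison, for dTRIM24 against DMSO at 24 h, where 0.199% of all genes were past it. MED18 forms with MED20 a movable part of the head that sits close to the polymerase. Its values at 24 h were 12.3 FPKM with dTRIM24, 7.41 FPKM with IACS-9571 and 5.35 FPKM in DMSO. At 4 h they were 7.10 FPKM with dTRIM24, 9.07 FPKM with IACS-9571 and 6.88 FPKM in DMSO. MED18 stood highest with dTRIM24 at 24 h, and above DMSO with IACS-9571 at both times, whereas dTRIM24 and DMSO were close at 4 h. The log2 differences were 1.07 for dTRIM24 against DMSO at 24 h, 0.66 for dTRIM24 against IACS-9571 at 24 h and 0.40 for IACS-9571 against DMSO at 24 h. With columns scaled to a common median the first was 0.78 and thus below 2-fold. At 4 h the differences were 0.04 for dTRIM24 against DMSO, -0.31 for dTRIM24 against IACS-9571 and 0.35 for IACS-9571 against DMSO. The comparisons with DMSO at one time share the same DMSO mean.

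The sign of the difference between the compounds in MED18 was thus opposite at the 2 times, which was not tested. Among all 11054 genes, MED18 lay at percentile 99.92 for dTRIM24 against DMSO at 24 h, 99.7 for IACS-9571 against DMSO at 24 h and 98.5 for IACS-9571 against DMSO at 4 h. The first of these follows from MED18 being past 2-fold there, as 15 of 11054 genes were in that direction. For dTRIM24 against IACS-9571 MED18 lay at percentile 98.9 at 24 h and 1.01 at 4 h. Its partner MED20 had 23.3 FPKM with dTRIM24, 19.3 FPKM with IACS-9571 and 20.3 FPKM in DMSO at 24 h, and MED8, which anchors the pair to the head, had 18.2, 15.95 and 17.1 FPKM in the same order. MED18 has no exon that overlaps another gene in the GENCODE 29 annotation, which also names no pseudogene copy of it.

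**Figure D2:**
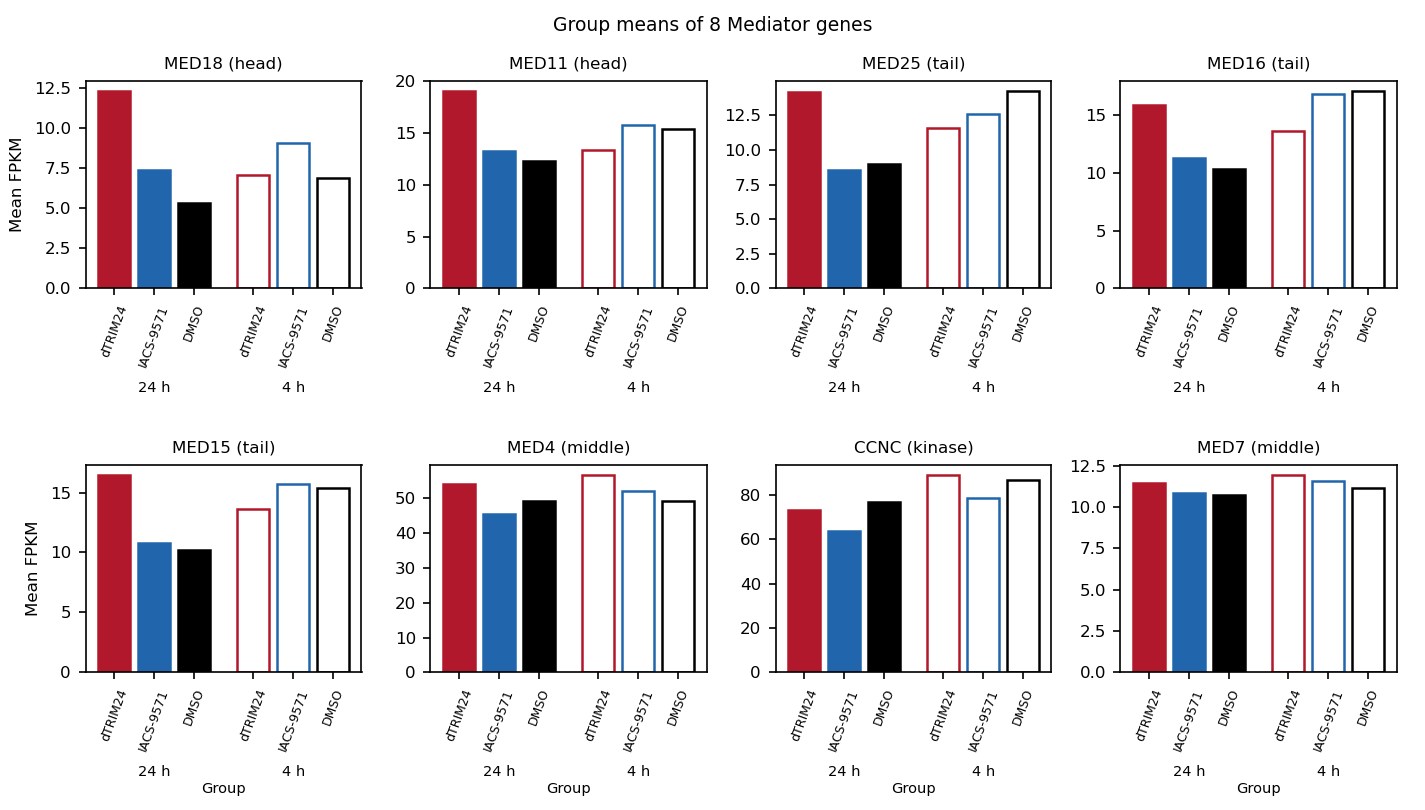
Mean FPKM of 8 Mediator genes, each panel with its own axis from 0; within each panel the groups run dTRIM24, IACS-9571 and DMSO, first at 24 h (filled) and then at 4 h (open), and bars are group means without an error. Among the 24 h groups all of these genes but CCNC are highest with dTRIM24, MED7 by little, and CCNC is highest in DMSO. With dTRIM24 at 24 h, 96.8% of all genes stood above DMSO and 98.4% above IACS-9571.

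The promoter of MED18 is shown because it is the gene past 2-fold, beside MED16, the gene with the largest difference between 24 h and 4 h in DMSO, and MED4, the gene with the least difference there. The lines below give the 250 bases before the start of each gene, 5′ to 3′ on the gene's strand, from RefSeq on GRCh38.p14. Capitals mark matches, on either strand, to TATAAA for a TATA box, GGGCGG for a GC box, CCAAT, or CCGGAAG for the core that ETS factors bind.
MED18, chr1:28328790-28329039, plus strand: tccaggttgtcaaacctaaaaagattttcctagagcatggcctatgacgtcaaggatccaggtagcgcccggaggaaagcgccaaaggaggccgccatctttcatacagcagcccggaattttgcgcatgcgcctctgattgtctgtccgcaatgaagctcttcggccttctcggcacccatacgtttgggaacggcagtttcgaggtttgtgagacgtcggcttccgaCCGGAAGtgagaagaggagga
MED16, chr19:893188-893437, minus strand: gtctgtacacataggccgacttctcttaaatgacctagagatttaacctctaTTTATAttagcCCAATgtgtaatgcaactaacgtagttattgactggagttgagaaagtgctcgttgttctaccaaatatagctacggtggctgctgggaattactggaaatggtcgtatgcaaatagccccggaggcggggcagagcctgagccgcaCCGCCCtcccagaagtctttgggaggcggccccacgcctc
MED4, chr13:48095105-48095354, minus strand: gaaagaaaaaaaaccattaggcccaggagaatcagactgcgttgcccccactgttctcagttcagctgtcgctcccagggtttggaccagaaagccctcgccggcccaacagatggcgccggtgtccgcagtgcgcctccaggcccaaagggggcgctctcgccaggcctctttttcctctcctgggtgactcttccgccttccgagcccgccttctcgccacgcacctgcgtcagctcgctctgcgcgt

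The MED18 window held 1 match to the ETS letters near the start, the MED16 window 1 match each to the TATA, GC and CCAAT letters, and the MED4 window none. RefSeq gave 30 windows for 25 of the 33 genes. Of these 30 windows, 17 held the GC box letters, 11 the CCAAT letters, 6 the ETS letters (of MED7, MED15, MED17, MED18 and MED31) and 2 the TATA letters (of MED7 and MED16). Of all 35116 windows of the same length, 42.6% held the GC box letters, 32.0% the CCAAT letters, 8.52% the ETS letters and 10.7% the TATA letters. These are matches of letters in a window and no evidence of binding.

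After 24 h with dTRIM24, Mediator genes stood above DMSO nearly throughout, as most genes did. Of the 32 genes 31 were higher, where 96.8% of all genes were, and CCNC was the exception, at 73.0 FPKM with dTRIM24 against 76.8 FPKM in DMSO. The Mediator median was 0.24 and that of all genes 0.26, so the Mediator genes shared the shift of the whole table. Of the 32 genes 16 lay above the median of all genes and 16 below. With every column scaled to 1 common median level the Mediator median was -0.05 and that of all genes -0.03. In bulk samples a change in the number of cells of one kind and a change in RNA per cell cannot be told apart. Per the labels' protocols the spike-ins were added after normalizing to cell number. Scaling to a common median takes out a shift of all genes whatever its source, which was not tested. The sum of the 32 genes was 664.7 FPKM with dTRIM24, against 563.8 FPKM in DMSO at 24 h. Past 2-fold there was 1 Mediator gene, MED18; the share over all genes was 0.199%.

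The modules differed in how far they stood from DMSO at 24 h. All 9 tail genes were higher, with a median of 0.43. MED15, the tail subunit bound by SREBP and SMAD factors, had 16.5 FPKM with dTRIM24 against 10.2 FPKM in DMSO, a difference of 0.64. MED25, which receives activators such as ATF6, had 14.2 FPKM against 8.996 FPKM in DMSO, and MED16, a tail subunit beside MED24 and MED23, 15.9 FPKM against 10.3 FPKM in DMSO. MED28 and MED30, also in the tail, differed by 0.07 and 0.15, so the tail genes ranged widely.

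The head had a median of 0.19, with MED18 at the top and MED11 next. MED11, which pairs with MED22 in the fixed part of the head, had 19.1 FPKM with dTRIM24 against 12.3 FPKM in DMSO at 24 h. MED22 had 10.3 FPKM with dTRIM24 against 6.78 FPKM in DMSO. The middle module had a median of 0.26, between 0.01 for MED21 and 0.55 for MED26. MED1, the subunit that nuclear receptors bind, had 25.9 FPKM with dTRIM24 against 21.4 FPKM in DMSO. The kinase module had a median of 0.20, from -0.07 for CCNC to 0.44 for MED12. At a bound of 1.5-fold, MED11, MED15, MED18 and MED25 were past it, 4 of 32, where 4.98% of all genes were.

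These differences ran with the GC content of the transcripts. Across the 32 Mediator genes, which share the same 2 group means, Spearman's rho between GC content and the difference was 0.82, and over 10243 genes it was 0.61. The tail genes had a median GC content of 52.3% and the kinase module genes of 43.2%; MED16 had 64.8%, MED15 61.0% and MED26 60.7%, against 36.7% for MED4, 36.8% for MED21 and 39.0% for CCNC. A cubic trend on GC content, fitted over all genes, was taken out. The fit has a constant, so it takes out the shift of the whole table as well as the slope. The median of all genes after it lay between -0.02 and 0.01 in the 9 comparisons. The share of all genes above the trend was not computed, so counts above and below it have no background here or in later paragraphs. As the median of all genes was not exactly 0, an even split need not be that background. For dTRIM24 against DMSO at 24 h, 17 Mediator genes lay above the trend and 15 below. The Mediator median was then 0.01, the tail median 0.11 and the kinase median 0.00. MED18 stood at 0.81, MED25 at 0.33 and MED11 at 0.29, the 3 highest of the 32, while CCNC was lowest at -0.23. MED15 was at 0.22 and MED16 at 0.11.

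**Figure D3:**
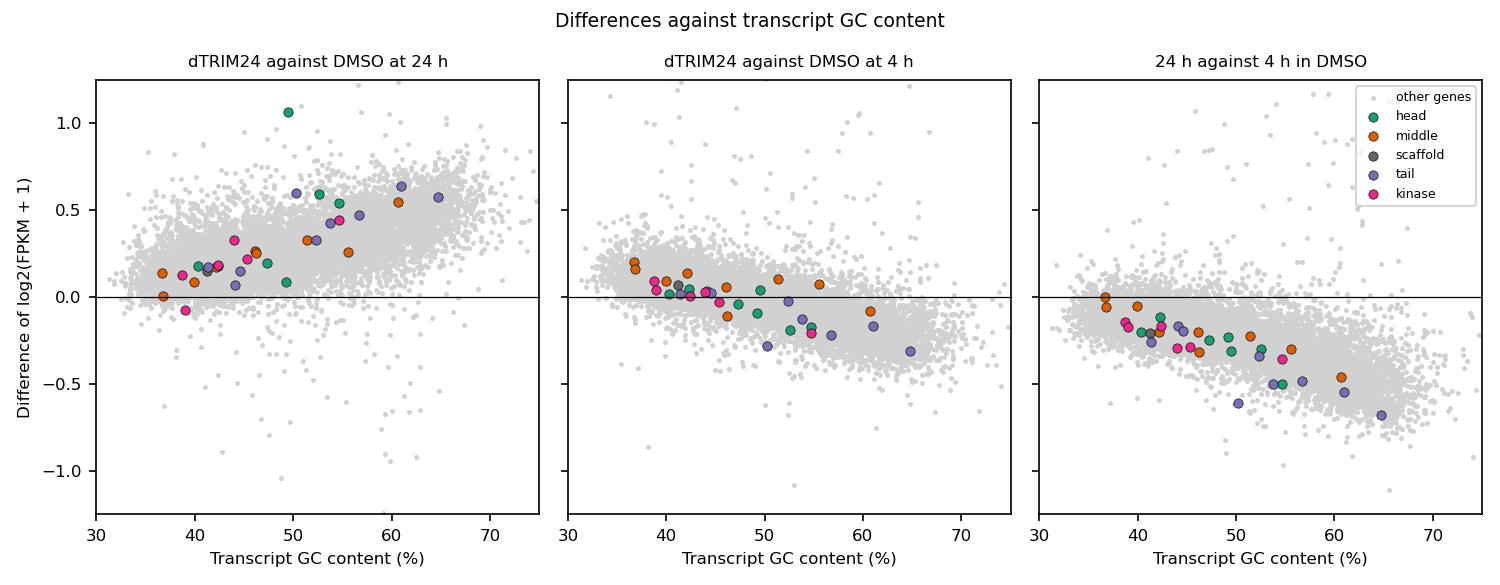
Difference of log2(FPKM + 1) against transcript GC content (%) for all genes with a GC value (grey) and Mediator genes coloured by module, in 3 comparisons; a few grey points lie beyond the ends of the vertical axis. Mediator genes follow the slope of the grey points, upward for dTRIM24 against DMSO at 24 h and downward in the other panels, and MED18 lies above it at 24 h.

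Set against IACS-9571 at 24 h, all 32 Mediator genes were higher with dTRIM24, where 98.4% of all genes were. The Mediator median was 0.29 and that of all genes 0.28, with 17 Mediator genes above that value and 15 below. With columns scaled to a common median the Mediator median was -0.01 and that of all genes -0.03. None was past 2-fold, against 0.217% of all genes, and 2 were past 1.5-fold, MED25 (0.67) and MED18 (0.66), against 3.21% of all genes. MED25 had 14.2 FPKM with dTRIM24 against 8.56 FPKM with IACS-9571. MED22 had 10.3 FPKM against 6.74 FPKM with IACS-9571, and MED12 10.04 FPKM against 6.76 FPKM. The least difference was that of MED7, which forms a hinge of the middle with MED21, at 11.5 FPKM with dTRIM24 against 10.8 FPKM with IACS-9571. With the GC trend taken out 24 lay above the trend and 8 below, with the share of all genes not computed. The median was then 0.03 against 0.00 for all genes, MED18 stood at 0.39 and MED25 at 0.38. Only dTRIM24 carries a VHL ligand part, but doses are not given, so the pair may differ in more than that part. No interval of their difference can be given from group means.

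With IACS-9571 for 24 h most Mediator genes stood slightly below DMSO. Of the 32 genes 9 were higher and 23 lower, where 42.6% of all genes were higher, with a median of -0.07 against -0.02 for all genes. None was past 2-fold, where 0.172% of all genes were, or past 1.5-fold, where 0.452% were. All 6 kinase module genes lay below DMSO, though MED13L, CDK8 and MED12 by 0.07 or less. Beyond the spike-in SD of 0.12 in this comparison lay 5 of 32 Mediator genes and 26.0% of all genes. Of the kinase module genes only CCNC was beyond it. CCNC was lowest, at 63.8 FPKM with IACS-9571 against 76.8 FPKM in DMSO, a difference of -0.26. MED10 of the middle followed with 24.8 FPKM against 28.3 FPKM in DMSO. On the other side MED18 stood at 0.40, and MED16 at 0.13 with 11.3 FPKM against 10.3 FPKM in DMSO. With the GC trend taken out, 13 lay above the trend and 19 below, with the share of all genes not computed. Of the 6 kinase module genes 2 lay above it. The median of the 32 genes was then -0.04 against -0.002 for all genes, CCNC was at -0.23 and MED18 at 0.42.

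After 4 h with dTRIM24 the Mediator genes lay on both sides of DMSO. Of the 32 genes 18 were higher, where 47.8% of all genes were; the median was 0.02 against -0.01 for all genes, and none was past 2-fold, where 0.688% of all genes were, or past 1.5-fold, where 1.02% were. The tail had a median of -0.12, with 6 of 9 genes lower. MED16 had 13.6 FPKM with dTRIM24 against 17.1 FPKM in DMSO, a difference of -0.31, and MED25 had 11.6 FPKM against 14.3 FPKM in DMSO. MED24 had 18.3 FPKM against 21.4 FPKM in DMSO. The middle had a median of 0.09, with 7 of 9 genes higher and MED4 at the top with 56.8 FPKM against 49.2 FPKM in DMSO.

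The tail genes MED15, MED16, MED24 and MED25 with dTRIM24 were thus above DMSO at 24 h and below it at 4 h, a difference between the times that was not tested. All 14 genes below DMSO at 4 h were above it at 24 h, where 31 of 32 Mediator genes and 96.8% of all genes were, MED11, MED22 and MED12 among them, at 0.59, 0.54 and 0.44 at 24 h and at -0.19, -0.17 and -0.21 at 4 h. The relation to GC content was opposite as well: rho across the 32 Mediator genes was 0.82 at 24 h and -0.71 at 4 h. With the GC trend taken out at 4 h, 9 Mediator genes lay above the trend and 23 below, with the share of all genes not computed. Before that step 18 had been above DMSO and 14 below it. The Mediator median was then -0.03 and that of all genes -0.02 with the trend taken out. MED25 was lowest there at -0.26, and MED16 stood at -0.14.

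With IACS-9571 for 4 h most Mediator genes stayed within the spike-in spread of DMSO. Of the 32 genes 17 were higher than DMSO, where 50.1% of all genes were; the median was 0.02 against 0.00 for all genes, and none was past 2-fold, where 0.289% of all genes were, or past 1.5-fold, where 0.66% were. Beyond the spike-in SD of 0.11 in this comparison lay 7 of 32 Mediator genes and 31.5% of all genes. With the GC trend taken out, 11 Mediator genes lay above it and 21 below, with the share of all genes not computed. The Mediator median was then -0.006 against -0.01 for all genes. MED18 was the highest at 0.35. MED31, a small middle subunit that binds MED7 in yeast, had 6.97 FPKM with IACS-9571 against 5.96 FPKM in DMSO, and MED9 had 13.6 FPKM against 12.3 FPKM in DMSO. MED25 was lowest, at 12.6 FPKM against 14.3 FPKM in DMSO, and CCNC had 78.5 FPKM against 86.6 FPKM in DMSO.

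Between the compounds at 4 h, dTRIM24 against IACS-9571, 13 Mediator genes were higher and 19 lower, where 42.6% of all genes were higher. With the GC trend taken out, 9 lay above the trend and 23 below, with the share of all genes not computed. The Mediator median was then -0.03 against -0.01 for all genes. Without that step the median was -0.03 against -0.02 for all genes. None was past 2-fold, where 0.597% of all genes were, or past 1.5-fold, where 0.751% were. Those below were led by MED18 (-0.31), MED16 (-0.29) and MED11 (-0.22). CCNC was highest, with 89.1 FPKM with dTRIM24 against 78.5 FPKM with IACS-9571, a difference of 0.18. Against DMSO, CCNC with IACS-9571 was lower at both times, with differences of -0.26 at 24 h and -0.14 at 4 h, percentiles 2.06 and 10.1 of all genes.

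**Figure D4:**
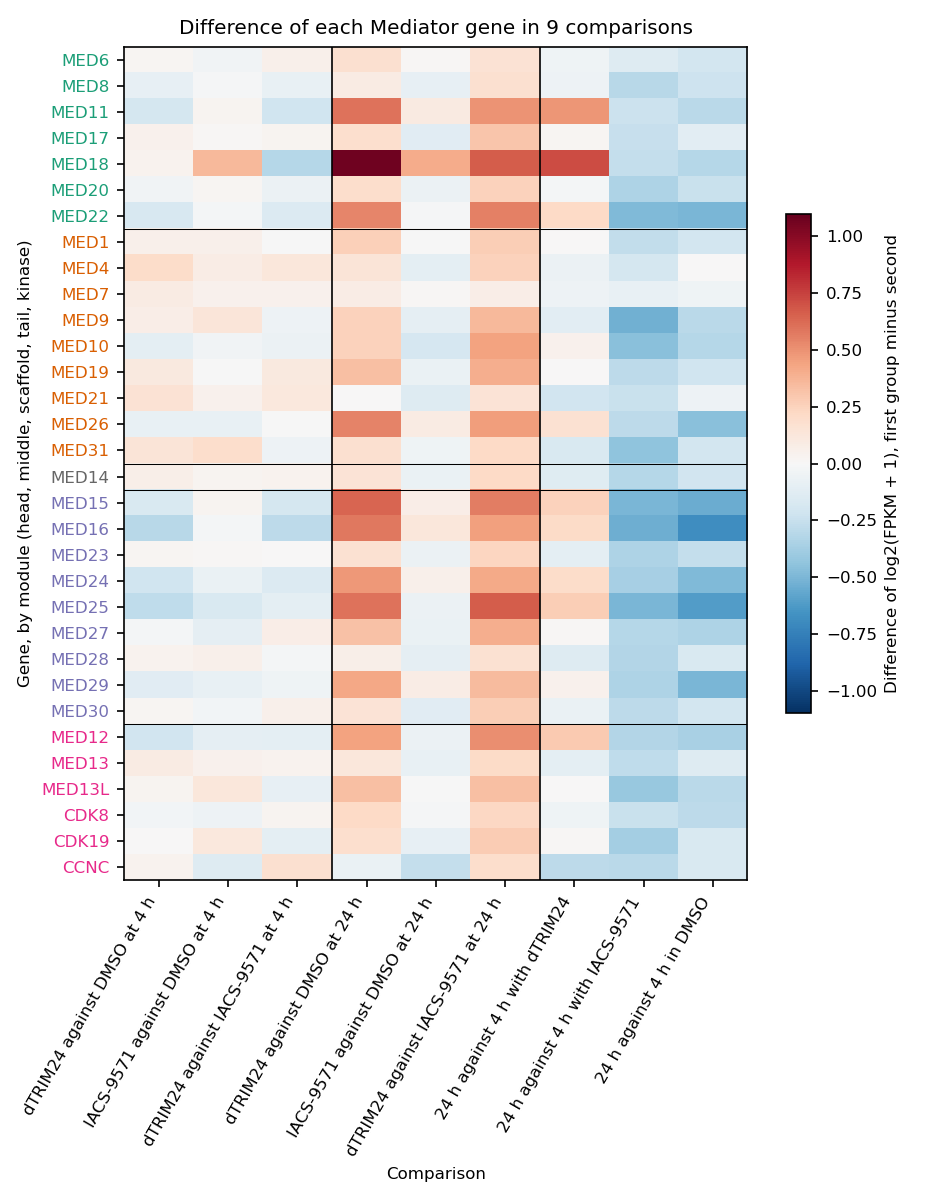
Difference of log2(FPKM + 1), first group minus second, of 32 Mediator genes (rows, by module) in 9 comparisons (columns), red for higher and blue for lower in the first group. MED18 has the deepest red, at 1.07 for dTRIM24 against DMSO at 24 h, and the DMSO and IACS-9571 columns of 24 h against 4 h are blue almost throughout, where the medians of all genes were -0.26 with IACS-9571 and -0.22 in DMSO.

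Mediator values were lower at 24 h than at 4 h in DMSO and with IACS-9571, and lay on both sides with dTRIM24; the difference between these time courses was not tested. In DMSO, 31 of 32 genes were lower at 24 h than at 4 h and 5.05% of all genes were higher. The Mediator median was -0.26 against -0.22 for all genes. With columns scaled to a common median it was 0.01 against 0.05 for all genes. MED4 had 49.2 FPKM at both times. None was past 2-fold, where 0.217% of all genes were, and 2 were past 1.5-fold, both lower, MED16 (10.3 FPKM at 24 h against 17.1 FPKM at 4 h) and MED25 (8.996 FPKM at 24 h against 14.3 FPKM at 4 h), where 4.01% of all genes were. The tail median was -0.48, the lowest of the modules, and -0.13 with the GC trend taken out. Of the 32 genes, 6 then lay above the trend and 26 below, with the share of all genes not computed. The Mediator median after the trend was taken out was -0.06 against -0.01 for all genes. That trend was steep: rho across the 32 Mediator genes was -0.87, and -0.72 over all genes.

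With IACS-9571 all 32 genes were lower at 24 h than at 4 h, and 3.04% of all genes were higher. The median was -0.31 against -0.26 for all genes, from -0.53 for MED16 to -0.09 for MED7, and none was past 2-fold, where 0.443% of all genes were, or past 1.5-fold, where 2.5% were. In this comparison 25 of the 32 lay below the median of all genes. With the GC trend taken out 5 lay above the trend and 27 below, with the share of all genes not computed. The Mediator median was then -0.06 against -0.004 for all genes. With dTRIM24, 17 were higher and 15 lower at 24 h than at 4 h, where 61.4% of all genes were higher. The median was 0.00 against 0.05 for all genes, and none was past 2-fold, where 0.669% of all genes were. MED18 was the 1 gene past 1.5-fold, where 1.18% of all genes were, at 12.3 FPKM at 24 h against 7.10 FPKM at 4 h, and MED11 followed with 19.1 FPKM at 24 h against 13.3 FPKM at 4 h. CCNC was lowest, at 73.0 FPKM at 24 h against 89.1 FPKM at 4 h.

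**Figure D5:**
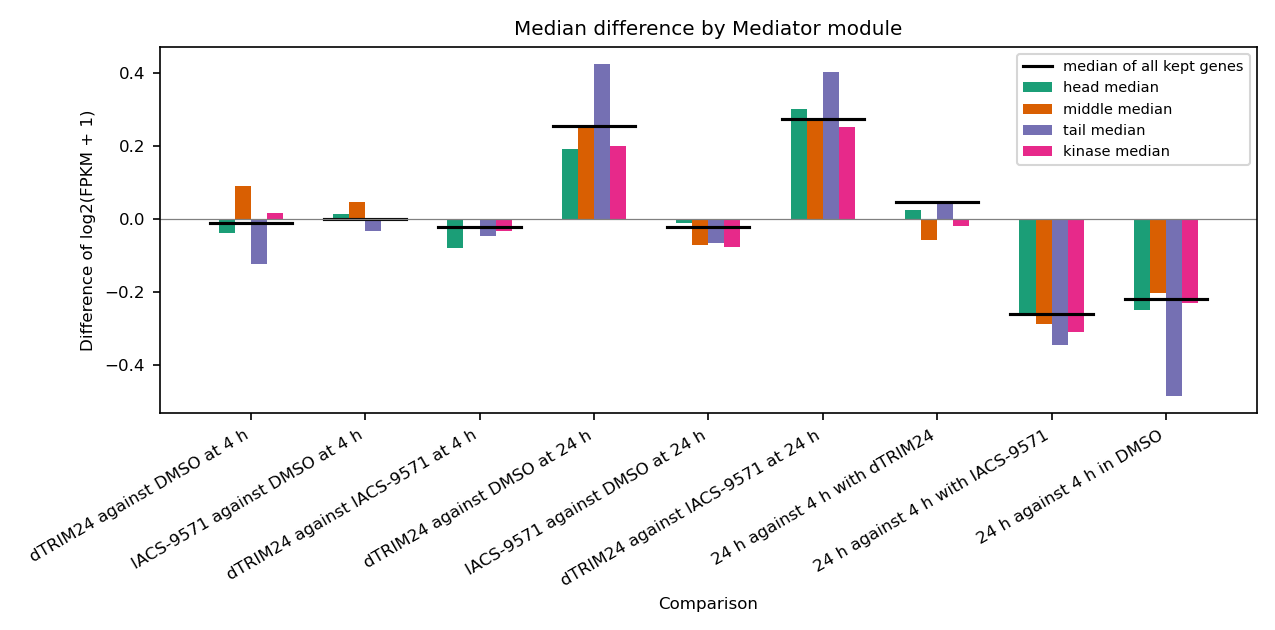
Median difference of log2(FPKM + 1) over the genes of each Mediator module (bars: head 7, middle 9, tail 9, kinase 6 genes) and over all kept genes (black lines) in 9 comparisons; no errors can be given. The tail bar reaches 0.43 for dTRIM24 against DMSO at 24 h and -0.48 for 24 h against 4 h in DMSO, farther from 0 than the black lines at 0.26 and -0.22.

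Of the genes of the machinery that works with Mediator none was past 2-fold in any of the 9 comparisons, where 0.172% to 0.688% of all genes were, so a count of 0 in lists of this size is near the background. For dTRIM24 against DMSO at 24 h 96.8% of all genes were higher, and the counts of these lists are near that share. All 12 RNA polymerase II subunits were higher, with a median of 0.24, and so were all 33 general initiation factors, with a median of 0.22. All 19 kept genes of pause release and elongation were higher too, with a median of 0.38, as were the 7 genes of cohesin and its loader, with a median of 0.32. The median of all genes was 0.26. With the GC trend taken out these medians were -0.06, 0.04, 0.08 and 0.09. MLLT1, a subunit of the super elongation complex, had 30.5 FPKM with dTRIM24 against 19.6 FPKM in DMSO, and MAU2, a cohesin loader subunit, 15.4 FPKM against 10.4 FPKM in DMSO. The polymerase subunit POLR2L had 78.4 FPKM against 54.4 FPKM in DMSO.

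Of 14 transcription factors known to bind a Mediator subunit, 13 reached 1 FPKM. SREBF1 and SREBF2 encode the sterol regulators that use MED15. SREBF1 had 33.5 FPKM with dTRIM24, 19.2 FPKM with IACS-9571 and 18.3 FPKM in DMSO at 24 h, a log2 difference of 0.84 for dTRIM24 against DMSO. SREBF2 at 4 h had 42.1 FPKM with dTRIM24, 51.3 FPKM with IACS-9571 and 39.1 FPKM in DMSO, a difference of 0.38 for IACS-9571 against DMSO. MED15 itself had 15.7 FPKM with IACS-9571 against 15.4 FPKM in DMSO at 4 h. For dTRIM24 against DMSO at 24 h all 13 factors were higher, as were 96.8% of all genes. Their median was 0.33; taking out the GC trend left 0.00.

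Several Mediator genes have values that other loci may share. In GENCODE 29 the exons of MED11 overlap CXCL16, those of MED17 overlap TAF1D, those of MED31 overlap TXNDC17 and those of MED25 overlap PTOV1-AS1, each on the opposite strand, and strand handling is not given in the sources used here. On their own strand, MED7 overlaps HAVCR2, MED17 overlaps AP001273.2 and MED26 overlaps AC008764.1 and AC008764.4, all annotated as protein-coding. MED15 and MED28 have 8 named pseudogene copies each. The MED27 copy CRSP8P is a row of its own with 7.88 FPKM with dTRIM24, 6.59 FPKM with IACS-9571 and 6.24 FPKM in DMSO at 24 h. Reads split between such loci would make these values uncertain.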

How the data were processed

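RNA of MOLM-13 cells was sequenced with ERCC spike-ins added after normalizing to cell number, per the labels' protocols. The authors deposited FPKM, and the submitters' processing notes name TopHat2, Cuffnorm and hg19. Each of the 6 columns is labelled as a group's mean. Versions, gene annotation and the handling of strand: not given in the sources used here. The labels' treatment protocol gives 24 h for every sample, and titles and time points, which give 4 h or 24 h, were followed. The most frequent value of each column is low (0.0914 to 0.105 FPKM, held by 6066 rows in DMSO at 4 h), and no value is 0. The spike-in medians of the 9 comparisons lie between -0.06 and 0.02 although column totals run from 771830 to 1058350 FPKM, as if values had been scaled to spike-ins.

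The 92 spike-ins, and 1706 rows whose names mark small RNAs, stayed out of all counts of genes. Genes with at least 1 FPKM in a group were kept (11054). Differences are of log2(FPKM + 1), with a bound of 2-fold. The limma fit planned for values per library was not possible on means, so no test was made. GC content came from the longest protein-coding transcript per symbol in GENCODE 29 (10243 genes, 92.7%, and all 32 Mediator genes). A cubic trend with a constant was taken out as an alternative. The other alternatives were pseudocounts of 0.1 and 0.5, median centring, rescaling to spike-ins, quantile normalization, no filter on low values, a minimum of 5 FPKM, a 1.5-fold bound and MED27 to MED30 placed in the head. The steps were tested on simulated data. The Mediator genes, modules and related lists were chosen with earlier results of these data known. All Mediator genes could be named; of related lists, genes past 2-fold or the 2 largest differences. Promoter sequences are RefSeq's on GRCh38.p14; no coordinate was used with the hg19 values. Software was pandas 2.3.3, numpy 2.4.6 and matplotlib 3.10.9 under Python 3.11.15. With no counts, depth and the precision it gives are unknown.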

Additional observations from a re-analysis of the deposited data

How the results depend on the processing

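No paired analysis was possible because the table holds 1 mean per group; for the same reason no replicate could be left out. A median counted as moved when it shifted by more than the spike-in SD of its comparison. The 4 medians that moved were those of the comparisons with a shift of all genes. With median centring the Mediator median was -0.052 for dTRIM24 against DMSO at 24 h, -0.011 for dTRIM24 against IACS-9571 at 24 h, -0.037 for 24 h against 4 h with IACS-9571 and 0.013 for 24 h against 4 h in DMSO. Quantile normalization gave -0.043, -0.0074, -0.030 and 0.013 in the same order. Taking out the GC trend, and with it the shift of all genes, gave 0.0059, 0.034, -0.058 and -0.056. The sign of 3 of these medians thus changed with at least 1 of these settings. Median centring did not put the median of all genes at 0. It was -0.034, -0.026, 0.019 and 0.050 in the same order. MED18 for dTRIM24 against DMSO at 24 h kept its direction under each setting, from 0.76 to 1.19, but with median centring (0.78), quantile normalization (0.76) and the GC trend taken out (0.81) it was below 2-fold and the count of genes past the bound was 0. At 1.5-fold the counts were 4 for dTRIM24 against DMSO at 24 h, 2 for dTRIM24 against IACS-9571 at 24 h, 1 for 24 h against 4 h with dTRIM24 and 2 for 24 h against 4 h in DMSO. With MED27 to MED30 in the head, the tail median was 0.58 for dTRIM24 against DMSO at 24 h and -0.55 for 24 h against 4 h in DMSO, and for IACS-9571 against DMSO at 24 h it was 0.05 in place of -0.06. The other 134 counts and medians of the whole complex stayed within these limits; of the values of MED18 and the modules, 319 did and 59 moved. Depth is unknown, so the precision of the lower genes, MED18 among them, cannot be given.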
